A study of Mus musculus with 2 samples.

Results

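The cells described here are the conventional dendritic cells (cDCs) of 2 mouse liver tumour libraries and their subsets: 224 of 17078 cell barcodes, 19 in the AKT1.MYC library and 205 in the NRAS.MYC.ND library. A barcode was taken as a cDC when no more than 20% of its UMIs (unique molecular identifiers, each counting 1 captured RNA molecule) were mitochondrial and when it held at least 1 UMI of at least 2 of 7 cDC genes, Flt3, Zbtb46, Xcr1, Clec9a, Cd209a, Ccl22 and Fscn1. In addition, the class II MHC genes H2-Aa, H2-Ab1, H2-Eb1 and Cd74 had to make up at least 1% of its UMIs, the macrophage genes C1qa, C1qb and C1qc less than 0.5%, Cd79a and Cd79b together no more than 1 UMI, and the plasmacytoid DC gene Siglech had to be absent. Cells with a UMI of Xcr1 or Clec9a were called cDC1. Of the others, those with Fscn1 and either Ccr7 or Ccl22 were called migratory, and the remaining cells cDC2-like, a name by exclusion. The cells were thus chosen by measured UMI counts of these genes, whose values are given below as descriptions only.

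The tumours were induced in the livers of C57BL/6 mice by hydrodynamic tail vein injection of oncogene plasmids with the Sleeping Beauty transposase, which inserts them into the genome of liver cells, and were resected 14 weeks later. The AKT1.MYC model received 10 µg of the Akt1 plasmid, 10 µg of the human c-Myc plasmid and 5 µg of the transposase plasmid per mouse. The NRAS.MYC.ND model received 19 µg of human N-Ras, 1 µg of human c-Myc and 2 µg of transposase plasmid, so human c-Myc is shared by both models, at different doses. Tumours were dissociated, live cells were enriched by removing dead cells, and 10x Genomics 3′ libraries were sequenced. The labels give neither the number of animals behind a library, nor their age or sex, nor what ND stands for. There was 1 library per model, so model and library cannot be told apart, no test between them was possible, and every interval below is a 95% interval that covers counting error only.

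Conventional DCs take up antigen in tissues, carry it to draining lymph nodes and present it to T cells on class II and class I MHC molecules. cDC1, which depend on the transcription factors IRF8 and BATF3, are known for taking up dead cells through Clec9a and presenting their antigens on class I to CD8 T cells. cDC2, which depend in part on IRF4 and carry Sirpa and C-type lectins such as Cd209a and Clec10a, are known for presentation on class II to CD4 T cells. Either type can mature into a CCR7-bearing migratory state in which uptake stops, class II synthesis is shut down and costimulatory ligands and chemokines are made. Tumours hold such mature cells too.

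The libraries held 10766 and 6312 barcodes with 64516171 and 42416125 UMIs in AKT1.MYC and NRAS.MYC.ND, each barcode with at least 500 UMIs, and 10313 and 6097 barcodes stayed within the mitochondrial limit. None of the 453 and 215 barcodes above that limit met the rest of the rule. Depth differed between the libraries: kept barcodes had a median of 1866 UMIs in AKT1.MYC and 4240 UMIs in NRAS.MYC.ND. The cDCs were closer in depth, with a median of 8909 UMIs (967 to 26746) in AKT1.MYC and 10892 (835 to 41210) in NRAS.MYC.ND. The libraries shared 17 barcode sequences, none of them a cDC in both. Levels are given as CPM, the UMIs of a gene per 1000000 UMIs summed over a group of cells, which compares a gene between groups but not genes with each other.

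The label was checked against marker genes. A list of 20 cDC1 genes outside the rule was compared with the C1q-positive macrophages of the same libraries. In AKT1.MYC cDCs 9 of its 17 measured genes were at least 2-fold higher and 1 lower. In NRAS.MYC.ND cDCs 14 of 20 were higher and 2 lower. Itgae, an integrin chain on that list, had 68.3 CPM in AKT1.MYC cDCs and 65.8 CPM in NRAS.MYC.ND cDCs, against 0.379 and 0.525 CPM in the macrophages. A list of 20 cDC2 genes outside the rule did not as a whole set the cDCs apart from these macrophages. In AKT1.MYC cDCs 3 of its 17 measured genes were at least 2-fold higher and 6 lower. In NRAS.MYC.ND cDCs 7 of 19 were higher and 7 lower. Summed over 14 macrophage and Kupffer cell genes, of which C1qa, C1qb and C1qc belong to the rule and set part of the gap, AKT1.MYC cDCs had 1171 CPM and NRAS.MYC.ND cDCs 493 CPM, against 18550 and 26742 CPM in the macrophages. In AKT1.MYC cDCs, 5 of these 14 genes had no UMI (Vsig4, Timd4, Mertk, Marco and Cd163). Of 12 T and NK cell genes, 11 had no UMI in AKT1.MYC cDCs and the list summed to 5.25 CPM there, against 300.1 CPM in NRAS.MYC.ND cDCs. Genes of T cells, fibroblasts or endothelium made up at least 0.1% of UMIs in 0 of 19 AKT1.MYC cDCs and in 14 of 205 NRAS.MYC.ND cDCs, which were 5 cDC1, 1 migratory and 8 cDC2-like cells. These 14 cells were kept, and only some of the results that move without them are given both ways. At least 2 keratin genes were detected in 17 of 19 AKT1.MYC cDCs and in 12 of 205 NRAS.MYC.ND cDCs. Summed hepatocyte and duct genes had 2016 and 1996 CPM in the cDCs of the 2 libraries, below the 10153 and 10074 CPM of all kept barcodes.

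Among the 7 genes of the rule, Flt3, the growth factor receptor of DC precursors and cDCs, was the one found in most cells. It had 73.5 CPM in AKT1.MYC cDCs (12 of 19 cells) and 148 CPM in NRAS.MYC.ND cDCs (164 of 205 cells). Zbtb46, a transcription factor of the cDC lineage, had 42.0 CPM in AKT1.MYC (8 cells) and 29.6 CPM in NRAS.MYC.ND (60 cells). C1q macrophages of AKT1.MYC and NRAS.MYC.ND held 1.89 and 2.94 CPM of Flt3. For Zbtb46 the macrophages held 1.59 and 1.36 CPM. The rule was met with exactly 2 of the 7 genes by 14 AKT1.MYC and 110 NRAS.MYC.ND cells and with 3 or more by 5 and 95 cells. Just outside it, 31 AKT1.MYC and 126 NRAS.MYC.ND barcodes had 1 of the 7 genes and met everything else, with median depths of 7182 and 6521 UMIs, so the number of cells depends on the number of genes asked for. The class II share of UMIs was far from its limit in most cells, with medians of 6.30% for the AKT1.MYC cells and 7.41% for the NRAS.MYC.ND cells. Its lowest values inside were 2.31% and 1.11%, and the highest outside were 0.166% and 0.758%. The C1q limit left out no AKT1.MYC barcode that met everything else, the highest share inside being 0.246%, and 10 NRAS.MYC.ND barcodes. In NRAS.MYC.ND the highest C1q share inside was 0.396%, and the lowest outside was 0.521%.

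cDCs were scarcer among the AKT1.MYC barcodes. They made up 0.184% of kept barcodes in AKT1.MYC (19 of 10313, 0.111 to 0.288%), against 3.36% in NRAS.MYC.ND (205 of 6097, 2.92 to 3.85%). The log2 ratio of AKT1.MYC over NRAS.MYC.ND was -4.19 (-4.95 to -3.51), and the intervals of the shares did not overlap. Among barcodes with a UMI of Ptprc, which encodes the leukocyte antigen CD45, cDCs were 0.582% in AKT1.MYC (16 of 2747, 0.333 to 0.944%) and 5.10% in NRAS.MYC.ND (180 of 3528, 4.40 to 5.88%). Because the AKT1.MYC barcodes were shallower, every barcode was also reduced to 1000 UMIs. This left out 28.3% of the kept AKT1.MYC barcodes and 6.53% of those of NRAS.MYC.ND as too shallow. After it, 0 of 7397 AKT1.MYC barcodes met the rule, which allows a share of up to 0.0406%, and 27 of 5699 NRAS.MYC.ND barcodes did, 0.474% (0.312 to 0.689%). The direction held at equal depth, on few cells. The share is one of the barcodes that dissociation and capture left, and other cell classes differed in the same direction. Plasmacytoid DCs were 0.0291% of kept barcodes in AKT1.MYC (3 cells) and 1.21% in NRAS.MYC.ND (74 cells), B cells 0.0582% (6 cells) and 4.17% (254 cells), and T cells 1.35% (139 cells) and 30.7% (1870 cells). C1q macrophages took 41.6% of the kept AKT1.MYC barcodes and 17.3% of those of NRAS.MYC.ND. The median depth of these macrophage barcodes was 1262 UMIs in AKT1.MYC and 7728.5 UMIs in NRAS.MYC.ND. The part of these cell classes in the share of cDCs was not tested.

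The shares of cDC1 and cDC2-like cells among cDCs were close in the 2 libraries, with wide intervals for the 19 AKT1.MYC cells. cDC1 were 47.4% of AKT1.MYC cDCs (9 of 19, 24.4 to 71.1%) and 48.3% of NRAS.MYC.ND cDCs (99 of 205, 41.3 to 55.4%). cDC2-like cells were 52.6% in AKT1.MYC (10 of 19, 28.9 to 75.6%) and 45.4% in NRAS.MYC.ND (93 of 205, 38.4 to 52.4%). Migratory cells were 0 of 19 in AKT1.MYC, which allows up to 15.8% when the limit is set at 3 counts, and 13 of 205 in NRAS.MYC.ND, 6.34% (3.42 to 10.6%), so a difference in the migratory share was not detectable with 19 cells. As shares of all kept barcodes, cDC1 had a log2 ratio of AKT1.MYC over NRAS.MYC.ND of -4.22 (-5.39 to -3.23), with 0.0873% and 1.62%. The cDC2-like cells had -3.98 (-5.08 to -3.03). The interval of each subset's ratio holds the estimate of the other.

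**Figure D1:**
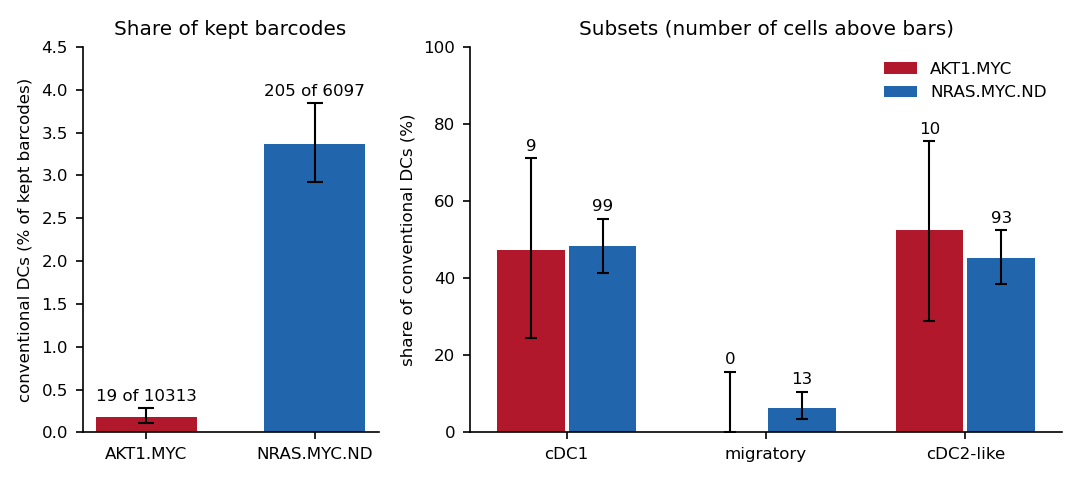
Left, cDCs as percent of kept barcodes in AKT1.MYC and NRAS.MYC.ND; right, each subset as percent of the cDCs of its library, with exact 95% binomial intervals and, for the empty migratory bar, the limit that a count of 0 allows. The AKT1.MYC bar at 0.184% lies far below the NRAS.MYC.ND bar at 3.36%, while the cDC1 bars stand at 47.4% and 48.3%.

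Xcr1, the receptor for the chemokine XCL1, and Clec9a, a receptor for actin exposed by dead cells, were both found in 4 of the 9 AKT1.MYC cDC1, Xcr1 alone in 1 and Clec9a alone in 4. Of the 99 NRAS.MYC.ND cDC1, 69 held both, 10 Xcr1 alone and 20 Clec9a alone. Cd209a, a C-type lectin, was not used to split the subsets. Its level in AKT1.MYC cDC2-like cells was 141 CPM, in 5 of 10 cells. In NRAS.MYC.ND it had 41.0 CPM in cDC1 (8 of 99 cells), no UMI in the 13 migratory cells and 586 CPM in cDC2-like cells (79 of 93). It was low in macrophages, with 0.151 CPM in AKT1.MYC and 1.57 CPM in NRAS.MYC.ND. Since Cd209a is among the 7 genes that admit a cell, its share of cDC2-like cells is partly set by the rule.

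Placing each cell by gene lists that leave out Xcr1 and Clec9a showed how far the subsets stood apart cell by cell. A cDC1 list of 19 genes took 0.213 to 0.667% of the UMIs of each AKT1.MYC cDC1, with a median of 0.414%, against 0.0312 to 0.656% and a median of 0.281% in AKT1.MYC cDC2-like cells. In NRAS.MYC.ND the same list took 0.0814 to 1.40% (median 0.805%) in cDC1 and 0.0280 to 0.960% (median 0.196%) in cDC2-like cells. The medians stood closer together in AKT1.MYC than in NRAS.MYC.ND, and the ranges overlapped in both libraries. A cDC2 list took a median of 0.0811% in AKT1.MYC cDC1 and 0.246% in AKT1.MYC cDC2-like cells. In NRAS.MYC.ND its medians were 0.0632% in cDC1 and 0.242% in cDC2-like cells. A maturation list took 0.0547 to 0.673% (median 0.152%) in AKT1.MYC cDC1 and 0.123 to 0.765% (median 0.249%) in AKT1.MYC cDC2-like cells. In NRAS.MYC.ND it took 0.403 to 1.89% (median 1.47%) in the migratory cells, against 0.0207 to 1.37% (median 0.125%) in NRAS.MYC.ND cDC1 and 0.0421 to 0.708% (median 0.187%) in NRAS.MYC.ND cDC2-like cells. Of the NRAS.MYC.ND cDC1, 6 also met the migratory criterion, and their maturation share ran from 0.212 to 1.37% with a median of 1.24%, inside the range of the migratory cells for 5 of the 6 and below it for the other.

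**Figure D2:**
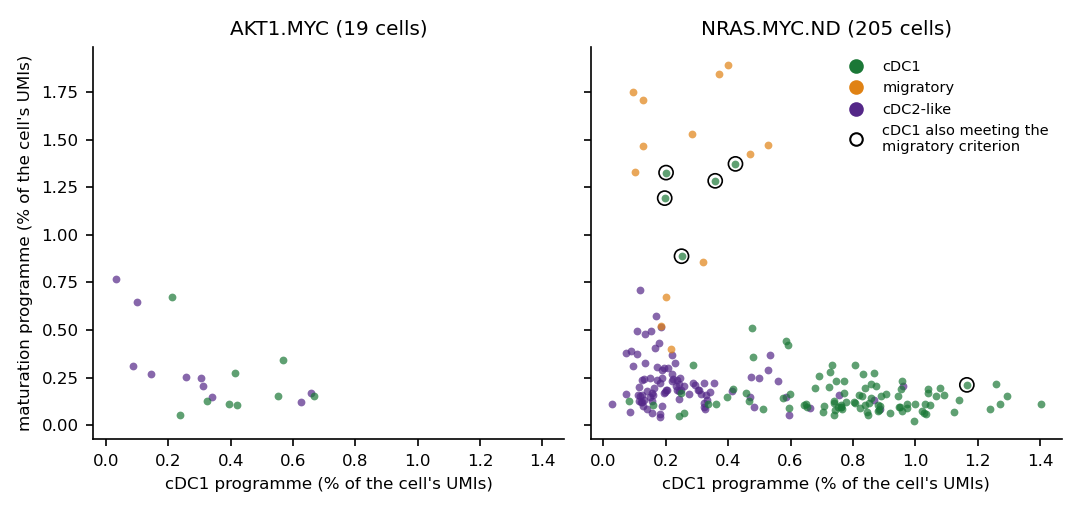
Each point is a cDC, placed by the percent of its UMIs in the cDC1 list (horizontal) and in the maturation list (vertical), for AKT1.MYC (19 cells) and NRAS.MYC.ND (205 cells); colours give the subset and rings mark the 6 cDC1 that also meet the migratory criterion. Migratory cells lie high, up to 1.89%, most cDC1 of NRAS.MYC.ND lie low and to the right, and no AKT1.MYC cell exceeds 0.765% on the maturation list.

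cDC1 and cDC2-like cells of NRAS.MYC.ND were compared gene by gene over 99 and 93 cells. cDC1 had higher levels of Irf8, Tlr3, Itgae and the lysosomal enzyme genes Ppt1 and Naaa, and cDC2-like cells had higher levels of Sirpa, Clec10a, Fcer1g and S100a4. A gene counts as higher or lower here from a 2-fold difference in CPM. Of the 20 measured genes of the cDC1 programme, 16 were at least 2-fold higher in cDC1 and none was 2-fold lower, with a median log2 ratio of 2.54. Of all 9691 genes measured, 8.20% were 2-fold higher and the median was -0.09. The cDC2 programme ran the other way: 14 of 18 measured genes were at least 2-fold lower in cDC1, none was higher, and the median was -1.93, against 11.4% of all genes lower. Without the 14 cells that carry genes of another lineage the counts were again 16 of 20 and 14 of 18.

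Irf8, the transcription factor that cDC1 need for their development, had 1252 CPM in cDC1 (94 of 99 cells) and 213 CPM in cDC2-like cells (41 of 93 cells), a log2 ratio of 2.56 (2.34 to 2.78). Batf3, its partner in the cDC1 programme, had 143 CPM in cDC1 and 37.9 CPM in cDC2-like cells, a log2 ratio of 1.92 (1.38 to 2.49). Tlr3, the endosomal sensor of viral RNA, had few UMIs outside cDC1, with 81.3 CPM in cDC1 (57 cells) and 2.23 CPM in cDC2-like cells (2 cells), a log2 ratio of 5.19 (3.30 to 8.25). Itgae, the integrin chain CD103, had 112 CPM in cDC1 and 5.57 CPM in cDC2-like cells, and Cadm1, an adhesion molecule, had 215 CPM in cDC1 and 21.2 CPM in cDC2-like cells. Ppt1, a lysosomal thioesterase, had 1243 CPM in cDC1 (93 cells) and 93.5 CPM in cDC2-like cells (54 cells), a log2 ratio of 3.73 (3.42 to 4.07). Naaa, a lysosomal amidase, had 698 CPM in cDC1 and 121 CPM in cDC2-like cells. Wdfy4, which cDC1 need for cross-presentation of cell-associated antigen, had 309 CPM in cDC1 and 89.1 CPM in cDC2-like cells. The measured genes of the list that did not pass 2-fold were Id2 (log2 ratio 0.64), Ckb (0.51), Cxcl9 (-0.28) and Itgb7 (-0.56). Mycl, a MYC family transcription factor of cDC1, was 2-fold higher in cDC1, the only one on a list of lineage transcription factors and growth factor receptors that leaves out Irf8, Batf3 and Id2, which are counted in the cDC1 programme. It had 197 CPM in cDC1 (81 cells) and 17.8 CPM in cDC2-like cells (14 cells).

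Further genes outside these lists were named by the size of this ratio, so that they split the subsets is set by the choice. P2ry14, a receptor for UDP-sugars, had 209 CPM in cDC1 (76 cells) and 10.0 CPM in cDC2-like cells (6 cells). Gpr141b, an orphan receptor, had 92.3 CPM in cDC1 (58 cells) and no UMI in cDC2-like cells, so it was higher by a log2 ratio of at least 4.79. Pianp had 82.0 CPM in cDC1 (48 cells) and 2.23 CPM in cDC2-like cells (2 cells). Il12b, the p40 chain of interleukin-12 and interleukin-23, had 61.5 CPM in cDC1, from 11 cells, and no UMI in cDC2-like cells, and 46 of its 84 UMIs lay in the 6 cDC1 that meet the migratory criterion. Among surface receptors, Cxcr3, the receptor for CXCL9 and CXCL10, had 61.5 CPM in cDC1 (46 cells) and 8.91 CPM in cDC2-like cells (5 cells). Ly75, the uptake receptor DEC-205, had 35.2 CPM in cDC1 and 4.45 CPM in cDC2-like cells, with 25 of its 48 cDC1 UMIs in the same 6 cells. Several collagen and stromal genes also passed the naming rule, yet came from few cells: of the 168 Dcn UMIs in cDC1, 162 came from 2 cells, and 120 of the 135 Cxcl12 UMIs came from 1 cell. Of the 10 measured endothelial and fibroblast genes, 6 were 2-fold higher in cDC1, and none was without the 14 cells.

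In the other direction, S100a4 had 68.8 CPM in cDC1 (22 cells) and 721 CPM in cDC2-like cells (87 cells), a log2 ratio of -3.39 (-3.72 to -3.07). Sirpa, the receptor for CD47, had 13.9 CPM in cDC1 (16 cells) and 117 CPM in cDC2-like cells (56 cells), a log2 ratio of -3.07 (-3.86 to -2.36). Clec10a and Mgl2 are neighbouring, closely related genes for galactose-type lectins, so the split of reads between them is uncertain. Clec10a had 11.0 CPM in cDC1 (4 cells) and 111 CPM in cDC2-like cells (34 cells). Mgl2 had 0.732 CPM in cDC1 and 153 CPM in cDC2-like cells, from 20 cells, 1 of which held 50 of the 137 UMIs. Il1r2, the decoy receptor for interleukin-1, had 2.20 CPM in cDC1 (3 cells) and 56.8 CPM in cDC2-like cells (32 cells). Irf4, the transcription factor tied to cDC2, was scarce in all subsets: it had no UMI in cDC1 and 13.4 CPM in cDC2-like cells, from 12 of 93 cells. Clec4a4 had 1 UMI in all 205 cells, Tbx21 had 9. The 4 measured genes of the list that did not pass 2-fold were Clec12a (0.70), Notch2 (0.04), Esam (-0.21) and Klf4 (-0.68). Of 9 measured monocyte marker genes, 5 were 2-fold lower in cDC1 and 1 was higher, with a median log2 ratio of -1.29. Genes named by size of the ratio included Ms4a4c, Mcemp1 and Ms4a6d, found in 59, 49 and 31 of 93 cDC2-like cells. The rule sets no limit on monocyte genes, and whether monocytes are among the cDC2-like cells was not tested.

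Several functional groups were lower in cDC1. Of 15 pattern recognition receptors and adaptors, 9 were 2-fold lower in cDC1 and none was higher, with a median log2 ratio of -1.13. Tlr3 and Tlr11 are not on that list, since they are counted in the cDC1 programme. Nlrp3, the inflammasome sensor, had 3.66 CPM in cDC1 and 39.0 CPM in cDC2-like cells. Of 14 uptake receptors, 8 were lower and 2 higher, and Fcer1g, the signalling chain of Fc receptors, had 354 CPM in cDC1 and 2025 CPM in cDC2-like cells, a log2 ratio of -2.52 (-2.66 to -2.37). Of 14 chemokines, 7 were lower and none was higher. Ccl3 had 118 CPM in cDC1 and 463 CPM in cDC2-like cells, and Ccl6 had 78.4 CPM in cDC1 and 382 CPM in cDC2-like cells. The median over the chemokines was -0.95, and 0.15 among cells with at least 3 genes of the rule. Of 27 interferon response genes, 11 were lower in cDC1 and none was higher, with a median of -0.96, among them Rtp4 with 6.59 CPM in cDC1 and 74.6 CPM in cDC2-like cells. Without the 14 cells the medians of the chemokines and the interferon genes were -0.72 and -0.87, with 6 of 14 and 10 of 26 genes lower. All 10 measured T and NK cell genes were lower in cDC1, and none of the 7 still measured was lower without the 14 cells. Cybb, the NADPH oxidase subunit of phagosomes, had 55.7 CPM in cDC1 and 507 CPM in cDC2-like cells, a log2 ratio of -3.19 (-3.56 to -2.83).

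Antigen presentation genes differed less. Of 15 genes of the class II pathway outside the rule, 4 were 2-fold lower in cDC1 and none was higher. Ctss, the protease that trims the invariant chain, had 712 CPM in cDC1 and 1566 CPM in cDC2-like cells, and Ifi30, a thiol reductase of the same compartment, had 779 CPM in cDC1 and 1812 CPM in cDC2-like cells. H2-DMb1, a chain of the molecule that loads peptide onto class II, had 1167 CPM in cDC1 and 1008 CPM in cDC2-like cells, a log2 ratio of 0.21. Of 20 class I and cross-presentation genes, 1 was lower, Cybb, and 1 higher, Rab43, a small GTPase linked to cross-presentation in cDC1, with 60.0 CPM in cDC1 and 26.7 CPM in cDC2-like cells. Cell cycle genes were close, with 1 of 25 lower and none higher, and Mki67 or Top2a was detected in 30.3% of cDC1 and 25.8% of cDC2-like cells.

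The 19 AKT1.MYC cDCs are too few for ratios of most genes, and their counts are given side by side. Fcer1g had 666 CPM in cDC1 and 1626 CPM in cDC2-like cells, S100a4 had 71.4 CPM in cDC1 and 508 CPM in cDC2-like cells, and Il1r2 had 35.7 CPM in cDC1 (2 of 9 cells) and 197 CPM in cDC2-like cells (8 of 10 cells). Itgae had 143 CPM in cDC1 (12 UMIs in 5 of 9 cells) and 9.40 CPM in cDC2-like cells (1 UMI). Irf8 did not differ in these counts, with 511 CPM in cDC1 (43 UMIs, 7 of 9 cells) and 526 CPM in cDC2-like cells (56 UMIs, 6 of 10 cells). Ppt1 had 428 CPM in cDC1 and 235 CPM in cDC2-like cells, and Naaa had 262 CPM in cDC1 and 188 CPM in cDC2-like cells. Tlr3 and Mycl had 1 UMI each in either subset.

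**Figure D3:**
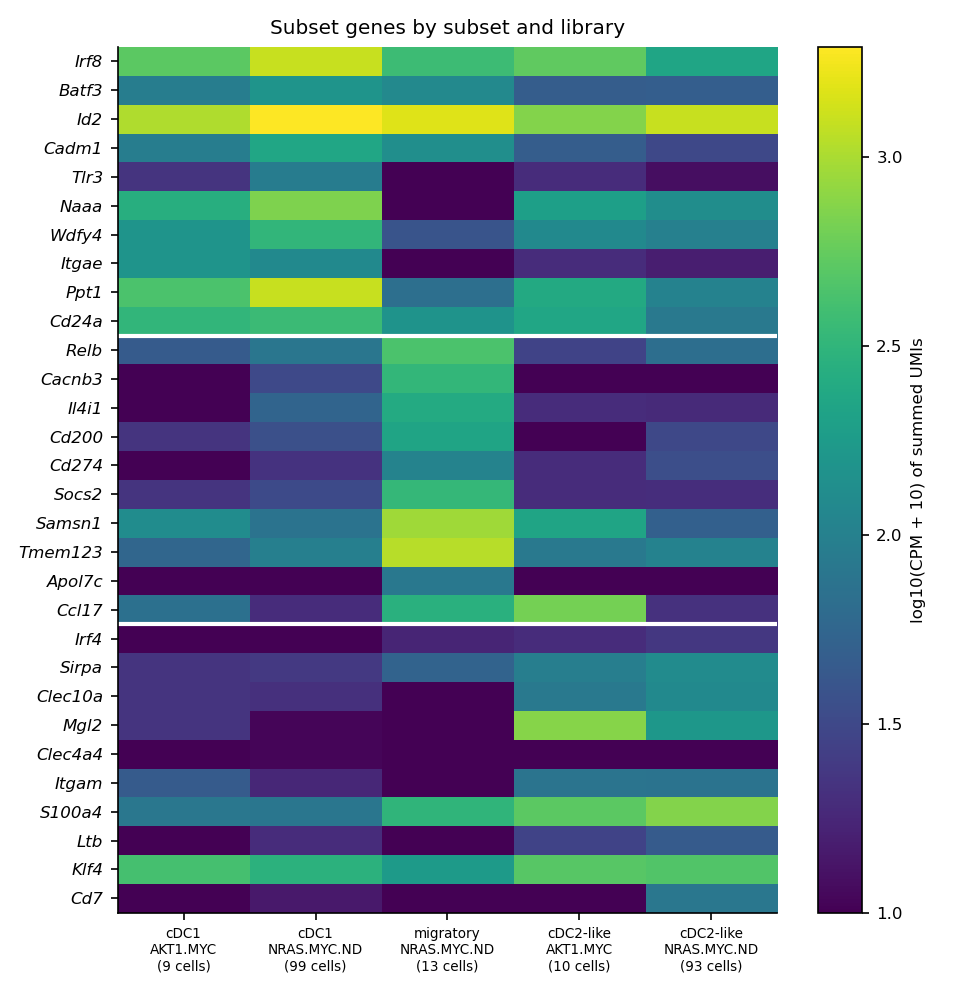
Summed level of 30 genes as log10(CPM + 10) in cDC1, migratory and cDC2-like cells of each library, with the cDC1 programme above, maturation genes in the middle and the cDC2 programme below. Irf8 stands at 511 and 526 CPM in the AKT1.MYC cDC1 and cDC2-like columns and at 1252 and 213 CPM in those of NRAS.MYC.ND, and the maturation block is brightest in the migratory column.

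The 13 migratory cells of NRAS.MYC.ND were set against the other 192 cDCs of that library. They had high levels of most maturation genes and low levels of the H2-DM and H2-O genes of the class II pathway. The 192 others include the 6 cDC1 that meet the migratory criterion. Fscn1, the actin-bundling protein fascin, is part of the rule and ran from 83.0 to 8126 CPM over the 13 cells, with a median of 1769.9 CPM. Ccr7, the receptor that guides cells to lymph nodes, is also part of the rule and ran from 0 to 6047 CPM, with a median of 2528 CPM. Their median depth was 9257 UMIs (977 to 41210). The deepest cell held 30.3% of all migratory UMIs (41210 of 136220), carried 0.410% of its UMIs in endothelial genes, had a high doublet score and had the lowest maturation share, 0.403%. For some genes and lists, values without the 14 cells with genes of another lineage, of which it is 1, are given for 12 cells against 179 others. All other migratory values include it, and its depth can lower or raise them. It held 1 of the 151 migratory Tmem123 UMIs and 32 of the 64 Lgmn UMIs.

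Of 28 measured maturation genes, 25 were at least 2-fold higher in migratory cells and 1 was lower, with a median log2 ratio of 3.02. Of all 9932 genes measured in this comparison 18.1% were 2-fold higher and 12.1% lower, with a median of 0.12. Without Ccr7, the member that the rule uses, the count was 24 of 27. Without the 14 cells it was 25 of 27, and none was lower. Zmynd15 ran from 0 to 2047 CPM over the 13 cells with a median of 640.2 CPM, and summed to 602 CPM in migratory cells and 16.3 CPM in the others, a log2 ratio of 5.20 (4.63 to 5.80). Cacnb3, a calcium channel subunit, ran from 0 to 1024 CPM with a median of 415 CPM and summed to 316 CPM in migratory cells and 13.3 CPM in the others, a log2 ratio of 4.57 (3.87 to 5.30). Both were present in most of the migratory cells, 9 and 12 of 13, and the 6 cDC1 that meet the migratory criterion held 20 of the 37 Zmynd15 UMIs and 27 of the 30 Cacnb3 UMIs of the others. Tmem123, a membrane glycoprotein, was found in all 13 and had 1108 CPM in migratory cells and 90.1 CPM in the others, and Samsn1 had 918 CPM in migratory cells and 55.2 CPM in the others. Socs2, a feedback inhibitor of cytokine signalling, had 323 CPM in migratory cells and 17.7 CPM in the others.

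Genes with roles in NF-kB signalling and T cell contact are given next. Relb, the NF-kB subunit of the non-canonical pathway, ran from 0 to 845 CPM over the 13 cells with a median of 415 CPM, and had 426 CPM in migratory cells and 64.9 CPM in the others, a log2 ratio of 2.71 (2.25 to 3.16). Traf1, an adaptor of TNF receptors, had 1255 CPM in migratory cells and 283 CPM in the others. Nfkb1 did not differ, with a log2 ratio of -0.01. Cd40, the receptor for help from CD4 T cells, had 73.4 CPM in migratory cells and 21.6 CPM in the others. Of 12 measured costimulatory and inhibitory ligands on a list of their own, 4 were higher and 4 lower, with a median of -0.03. Cd274, which encodes PD-L1 and is on that list, had 95.4 CPM in migratory cells (7 of 13 cells) and 17.2 CPM in the others. Cd200, the ligand of an inhibitory myeloid receptor, had 206 CPM in migratory cells and 24.3 CPM in the others. Il4i1, a secreted amino acid oxidase, had 242 CPM in migratory cells and 30.5 CPM in the others. Il15, a cytokine for T and NK cells, had 58.7 CPM in migratory cells and 7.51 CPM in the others. Cd86, a costimulatory ligand, was the 1 gene of the maturation list that was lower, with 58.7 CPM in migratory cells and 143 CPM in the others, a log2 ratio of -1.28 (-2.50 to -0.29). Without the 14 cells it had 73.7 CPM in migratory cells and 147 CPM in the others, and its interval then included 0. Lamp3, often used to name mature DCs in human tumours, had no UMI in any of the 224 cells.

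Of 15 measured chemokines, 5 were 2-fold higher in migratory cells and 4 lower, with a median log2 ratio of 0.17. Ccl5, a chemokine for T cells, was found in all 13 migratory cells and ran from 91.5 to 39928 CPM with a median of 1769.9 CPM. It summed to 8244 CPM in migratory cells and 812 CPM in the others, a log2 ratio of 3.34 (3.24 to 3.45), and without the 14 cells to 11767 CPM in migratory cells and 296 CPM in the others. Ccl5 had 4489 CPM over all kept barcodes of the library. Cxcl16, a chemokine that is also a scavenger receptor, was found in all 13 cells, from 249 to 1316 CPM with a median of 823 CPM, and had 785 CPM in migratory cells and 176 CPM in the others. Ccl17, which like Ccl22 is a ligand of CCR4, came from 5 of 13 cells and had 272 CPM in migratory cells and 10.2 CPM in the others. Il12b had 859 CPM in migratory cells (9 of 13 cells) and 37.1 CPM in the others, a log2 ratio of 4.53, with 39 of its 117 UMIs in the deepest cell, and 46 of the 84 UMIs of the others lay in the 6 cDC1 that meet the migratory criterion. Without the 14 cells it had 821 CPM in migratory cells and 41.0 CPM in the others. Ccl22 is a gene of the rule, and 2 of the 13 cells held 59 and 58 of its 178 UMIs with 1 Fscn1 UMI each and maturation shares of only 0.519% and 0.673%. These 2 cells also held 14 and 16 of the 37 Ccl17 UMIs.

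The class II pathway split within itself. Of its 15 measured genes outside the rule, 7 were at least 2-fold lower in migratory cells and 4 higher, with a median log2 ratio of -0.88. H2-DMb1 was detected in 4 of 13 migratory cells and in 188 of 192 others, with 44.0 CPM in migratory cells and 1104 CPM in the others, a log2 ratio of -4.65, and of -4.45 (-6.08 to -3.23) without the 14 cells. H2-DMb2, its close copy, was detected in 1 of 13 migratory cells and 140 of 192 others, with 7.34 CPM in migratory cells and 200.1 CPM in the others. The split of reads between the copies is uncertain, and both were low. H2-DMa, the partner chain, was found in 5 of 13 migratory cells and had 110.1 CPM in migratory cells and 936 CPM in the others, and without the 14 cells 52.6 CPM in migratory cells and 968 CPM in the others. H2-Oa and H2-Ob encode H2-O, the inhibitor of H2-DM. H2-Oa had 44.0 CPM in migratory cells and 232 CPM in the others, and H2-Ob had 7.34 CPM in migratory cells (1 cell) and 146 CPM in the others (136 cells). Ciita, the transactivator of class II genes, had 22.0 CPM in migratory cells (3 cells) and 140.5 CPM in the others, a log2 ratio of -2.67 (-4.96 to -1.11). March1, a ubiquitin ligase that removes class II and CD86 from the surface of immature DCs, had 1 UMI in migratory cells and 143 CPM in the others.

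H2-Eb2, a class II beta chain gene beside H2-Eb1, stood out on the other side. It had 184 CPM in migratory cells (7 of 13 cells) and 18.1 CPM in the others, a log2 ratio of 3.34 (2.56 to 4.09). Lgmn, a lysosomal protease, had 469.8 CPM in migratory cells and 162 CPM in the others, with 32 of its 64 migratory UMIs in the deepest cell. Rfx5 and Rfxank passed 2-fold on 2 cells each. Ctss had 573 CPM in migratory cells and 1051 CPM in the others, under 2-fold. Of 20 class I and cross-presentation genes 3 were 2-fold higher and 2 lower, and B2m, the light chain of class I, had 3759 CPM in migratory cells and 1974 CPM in the others, a log2 ratio of 0.93 (0.79 to 1.06).

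The promoters of 4 of these genes are shown because their levels went opposite ways in the migratory cells, although they lie in the same class II region of chromosome 17. The sequences are RefSeq promoters on GRCm38.p6, the 250 bases before the annotated start, 5′ to 3′ on the gene's own strand, which is the plus strand for all 4. H2-DMb1 is at chr17:34152941-34153190, H2-Oa at chr17:34092129-34092378, H2-Ob at chr17:34238655-34238904 and H2-Eb2 at chr17:34325425-34325674. Capitals mark 2 searched motifs, the X box type CCNAGNNAC, whose letters follow the site bound by the RFX complex, and the Y box type GATTGG, which contains the inverted CCAAT box bound by NF-Y. Both strands were searched.
H2-DMb1: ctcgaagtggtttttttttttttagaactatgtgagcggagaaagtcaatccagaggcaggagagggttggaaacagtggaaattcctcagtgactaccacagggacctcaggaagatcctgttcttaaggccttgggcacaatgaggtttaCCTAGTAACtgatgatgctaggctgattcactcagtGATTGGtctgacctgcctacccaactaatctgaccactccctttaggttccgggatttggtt
H2-Oa: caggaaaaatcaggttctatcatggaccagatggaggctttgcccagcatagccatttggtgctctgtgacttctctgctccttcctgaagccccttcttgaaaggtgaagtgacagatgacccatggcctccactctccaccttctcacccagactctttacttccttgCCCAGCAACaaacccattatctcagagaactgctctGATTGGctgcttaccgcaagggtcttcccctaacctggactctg
H2-Ob: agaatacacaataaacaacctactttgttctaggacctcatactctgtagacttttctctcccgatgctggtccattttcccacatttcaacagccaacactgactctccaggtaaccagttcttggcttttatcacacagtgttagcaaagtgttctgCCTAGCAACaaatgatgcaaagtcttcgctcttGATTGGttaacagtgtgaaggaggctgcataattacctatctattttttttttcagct
H2-Eb2: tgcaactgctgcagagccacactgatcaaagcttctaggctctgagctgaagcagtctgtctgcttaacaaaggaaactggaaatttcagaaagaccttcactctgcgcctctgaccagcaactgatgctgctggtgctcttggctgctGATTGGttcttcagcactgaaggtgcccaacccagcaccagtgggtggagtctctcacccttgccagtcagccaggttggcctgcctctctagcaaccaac
An X box type match 15 to 40 bases before a Y box type match on the same strand was present in the promoters of H2-DMb1, H2-Oa and H2-Ob, with the X match starting 98, 80 and 91 bases and the Y match 62, 44 and 58 bases before the start site. The window of H2-Eb2 held a Y box type match, 101 bases before the start site, and no exact X box type match. A stretch that differs from the X box type in its first letter alone lies 15 to 40 bases before that Y match on the same strand. Such near matches were not counted in any promoter. Of all 32851 promoters of this length, 14.5% held the X box type, 14.6% the Y box type and 0.174% the spaced arrangement of both. Of the 15 class II pathway genes 12 had a promoter in the table, and 3 of the 12, all shown above, held the spaced arrangement. H2-DMa and H2-DMb2, which were also low in migratory cells, did not hold it, although H2-DMb2 held both motifs and H2-DMa the Y box type. Of the higher genes, Lgmn held the X box type, and Rfx5 and Rfxank held the Y box type. The match is one of letters, and binding was not measured.

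**Figure D4:**
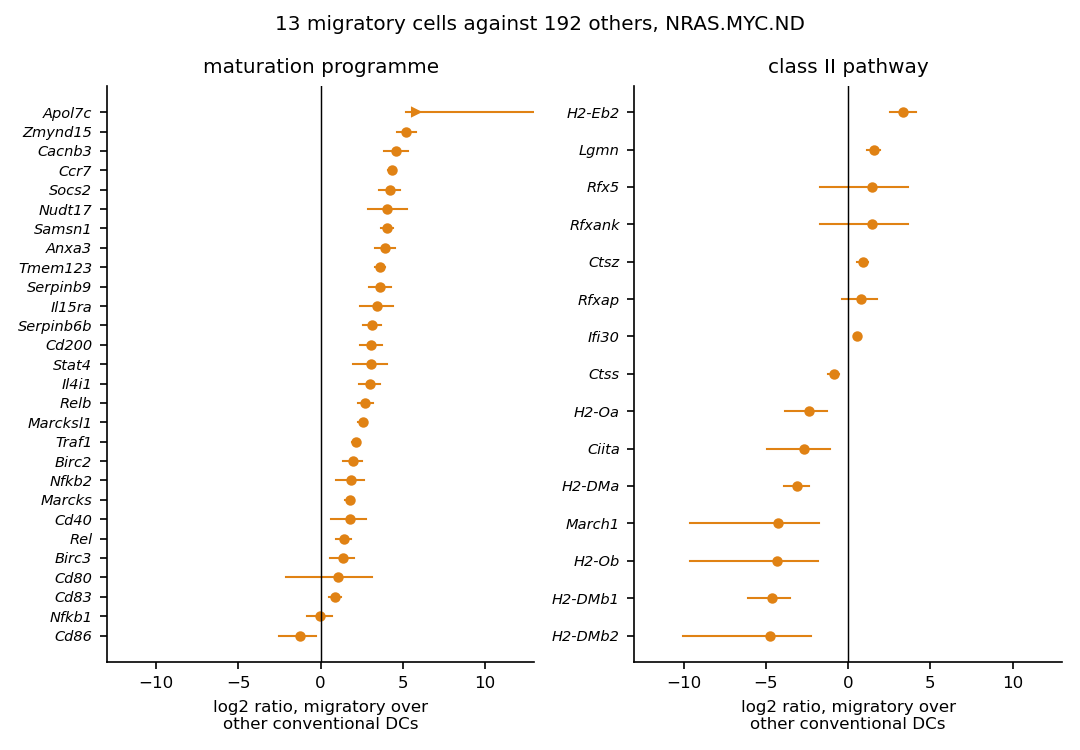
log2 ratio of CPM in the 13 migratory cells over the other 192 cDCs of NRAS.MYC.ND, with 95% counting intervals, for the 28 measured maturation genes (left) and 15 class II pathway genes (right); the triangle marks a lower bound. Nearly all maturation genes lie right of 0, Cd86 lies left of it at -1.28, and in the class II pathway H2-Eb2 at 3.34 and H2-DMb1 at -4.65 lie on opposite sides.

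Other genes of the migratory cells included Cd63, a tetraspanin of lysosomes and vesicles, with 903 CPM in migratory cells and 68.9 CPM in the others, and Fabp5, a fatty acid binding protein, with 800.2 CPM in migratory cells and 83.9 CPM in the others. Basp1, a membrane protein tied to actin, had 1439 CPM in migratory cells and 181 CPM in the others, and Ly75 had 228 CPM in migratory cells and 23.0 CPM in the others. Adora2a, an adenosine receptor, had 147 CPM in migratory cells (9 of 13 cells) and 4.42 CPM in the others. Among the lower genes, Alox5ap, the partner of 5-lipoxygenase in leukotriene synthesis, had 7.34 CPM in migratory cells (1 of 13 cells) and 1192 CPM in the others (184 of 192 cells), a log2 ratio of -7.34 (-12.65 to -4.86). Plbd1, a phospholipase B-like protein, had no UMI in migratory cells and 959 CPM in the others (183 cells), a log2 ratio of -5.44 or lower. Naaa also had no UMI in migratory cells, against 469 CPM in the others. Ccr2, the receptor for CCL2, had no UMI in migratory cells and 206 CPM in the others, and Mycl had 7.34 CPM in migratory cells and 126 CPM in the others. Of the cDC1 programme 12 of 20 genes were lower in migratory cells and 1 was higher, and of the cDC2 programme 7 of 18 were lower and 1 was higher. The higher cDC1 gene, Cd36, had 29 of its 35 migratory UMIs in the deepest cell, which also held 19 of the 20 Esam UMIs, the higher cDC2 gene. Cell cycle genes were 2-fold lower for 12 of 25, and for 8 of 25 without the 14 cells. Early response genes, which tissue dissociation also induces, were 2-fold lower for 7 of 20, and for 11 of 20 without the 14 cells, with Fos at 1409 CPM in migratory cells and 4511 CPM in the others. With all cells 12.1% of all genes were lower. The share without the 14 cells is not given, so the change in these counts is a description only.

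cDCs were next set against the C1q macrophages of their own library, 19 against 4287 cells in AKT1.MYC and 205 against 1052 in NRAS.MYC.ND. The macrophage barcodes had medians of 1262 UMIs and 760 genes in AKT1.MYC, and of 7728.5 UMIs and 2433 genes in NRAS.MYC.ND. The part of free C1q RNA in bringing shallow AKT1.MYC barcodes into this population was not tested. The rule separates these populations by the C1q, class II and cDC genes, so those are left aside. No class II minimum was asked of the macrophages. Differences in genes that vary together with class II, or with Xcr1 and Clec9a, can therefore be partly set by the rule too. In both libraries the cDCs had higher levels of Ciita, H2-Oa and H2-DMb2 and of much of the cDC1 programme, and lower levels of most uptake and lipid-handling genes. Of the cDC1 programme, 9 of 17 measured genes were 2-fold higher and 1 lower in AKT1.MYC cDCs, and 14 of 20 higher and 2 lower in NRAS.MYC.ND cDCs. The cDC2 programme did not separate them in this way. It had 3 of 17 genes higher and 6 lower in AKT1.MYC cDCs, with a median log2 ratio of -0.22. In NRAS.MYC.ND cDCs 7 of 19 were higher and 7 lower, with a median of 0.48. Of 15 class II pathway genes, 6 of the 14 measured were at least 2-fold higher and 3 lower in AKT1.MYC cDCs, where 11.4% of all 14438 genes were higher and 11.3% lower. In NRAS.MYC.ND cDCs 5 of 15 were higher and 3 lower, against 12.4% and 15.7% of all 13610 genes. H2-Oa had 78.8 CPM in AKT1.MYC cDCs and 1.51 CPM in macrophages, and 221 CPM in NRAS.MYC.ND cDCs and 5.46 CPM in macrophages. Ciita had 63.0 CPM in AKT1.MYC cDCs and 1.97 CPM in macrophages, a log2 ratio of 5.00 (3.88 to 6.04), and 134 CPM in NRAS.MYC.ND cDCs and 41.7 CPM in macrophages, a log2 ratio of 1.68 (1.47 to 1.90). The intervals of these Ciita ratios do not overlap. H2-DMb2 likewise had log2 ratios of 5.87 (5.25 to 6.48) for AKT1.MYC and 3.69 for NRAS.MYC.ND, with 226 and 189 CPM in the cDCs. Lgmn was lower in cDCs of both libraries, with log2 ratios of -3.77 and -3.82.

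Uptake receptors were 2-fold lower for 12 of 16 in AKT1.MYC cDCs and for 15 of 16 in NRAS.MYC.ND cDCs, with 1 higher in each. Cholesterol efflux and lipid genes were lower for 12 of 20 and 14 of 20. Lpl, lipoprotein lipase, had 5.25 CPM in AKT1.MYC cDCs and 319.9 CPM in macrophages, and Trem2, a lipid receptor of macrophages, had 36.8 CPM in AKT1.MYC cDCs and 1022 CPM in macrophages. Among genes named by size of the ratio in AKT1.MYC, Klrd1 and Klrk1, best known as NK cell receptor genes, had 116 and 121 CPM in cDCs (11 and 14 of 19 cells) and 0.833 and 1.97 CPM in macrophages. Nearly all T and NK marker genes were at 0 in the same 19 cells. Lmo1, a LIM domain transcriptional regulator, had 89.3 CPM in AKT1.MYC cDCs (10 of 19 cells) and 2.27 CPM in macrophages. In NRAS.MYC.ND, Tbc1d4, a Rab GTPase activator, had 186 CPM in cDCs and 4.20 CPM in macrophages, and Jaml, an adhesion molecule, had 91.3 CPM in cDCs (106 of 205 cells) and 2.94 CPM in macrophages. Cell cycle genes were 2-fold higher for 6 of 25 in AKT1.MYC cDCs, with 1 lower and a median log2 ratio of 0.55, which was -0.42 with 3 genes of the rule asked for. In NRAS.MYC.ND cDCs 22 of 25 were higher, with a median of 1.77. Mki67 or Top2a was detected in 47.4% of AKT1.MYC cDCs (9 of 19, 24.4 to 71.1%) and in 28.3% of NRAS.MYC.ND cDCs (58 of 205, 22.2 to 35.0%), intervals that overlap.

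Between the models, the 19 AKT1.MYC cDCs had higher levels of Cxcl2, Il1b, Cdkn1a and heat shock genes and lower levels of interferon-induced genes than the 205 NRAS.MYC.ND cDCs. Markers of other cells differed as well: neutrophil markers were higher for 3 of 6 (median log2 ratio 1.25), macrophage markers for 4 of 12 (median 0.53, C1q genes included), and T and NK cell markers were lower for 5 of 10. At least 2 neutrophil genes were detected in 42.1% of AKT1.MYC cDCs and in 22.9% of NRAS.MYC.ND cDCs. Their part in the differences below was not tested. Of all 10158 genes measured in this comparison, 10.4% were at least 2-fold higher in AKT1.MYC and 12.1% lower, with a median log2 ratio of -0.04. The ratio in C1q macrophages is given beside that in cDCs, so that differences shared by both populations can be told from the rest. Cxcl2, a chemokine for neutrophils, was found in 17 of 19 AKT1.MYC cDCs and 26 of 205 NRAS.MYC.ND cDCs, with 977 CPM in AKT1.MYC and 37.1 CPM in NRAS.MYC.ND, a log2 ratio of 4.72 (4.35 to 5.10), against 3.59 in macrophages. Of its 186 AKT1.MYC UMIs, 105 came from 1 cell. Over all kept AKT1.MYC barcodes Cxcl2 stood higher, at 1722 CPM, and the part of free RNA in its level in cDCs was not tested. Within cDC1 the ratio was 2.47 (167 CPM in AKT1.MYC and 30.0 CPM in NRAS.MYC.ND), and within cDC2-like cells 5.01. Il1b, the inflammasome-processed cytokine, had 2137 CPM in AKT1.MYC (18 of 19 cells) and 448 CPM in NRAS.MYC.ND (132 of 205 cells), a log2 ratio of 2.25 (2.08 to 2.42), against 1.94 in macrophages.

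Cdkn1a, the cell cycle inhibitor p21, was found in 14 of 19 AKT1.MYC cDCs and 72 of 205 NRAS.MYC.ND cDCs, with 583 CPM in AKT1.MYC and 52.9 CPM in NRAS.MYC.ND, a log2 ratio of 3.46, against 1.95 in macrophages. The Cdkn1a ratio was of like size within cDC1 (3.79) and cDC2-like cells (3.13). Of its 111 AKT1.MYC UMIs, 36 came from 1 cell and 53 from the top 2 cells. The inducible heat shock genes Hspa1a and Hspa1b, which are close copies, had 1407 and 404 CPM in AKT1.MYC and 320.5 and 51.3 CPM in NRAS.MYC.ND. Of 20 early response and dissociation genes, 7 were 2-fold higher in AKT1.MYC cDCs and none was lower, with a median of 0.73, and in macrophages the count was also 7 of 20, with a median of 0.89. Atf3, a stress-induced transcription factor on that list, had 2573 CPM in AKT1.MYC cDCs and 795 CPM in NRAS.MYC.ND cDCs. Hilpda, a hypoxia-induced lipid droplet protein, had 105 CPM in AKT1.MYC cDCs (8 cells) and 10.0 CPM in NRAS.MYC.ND cDCs (22 cells), while all kept AKT1.MYC barcodes had 161 CPM. The hypoxia list as a whole had 2 of 20 genes higher and 1 lower in AKT1.MYC cDCs, with a median of 0.09. Ccl17 and Mgl2 were also higher in AKT1.MYC, with 383 and 415 CPM there and 25.0 and 57.5 CPM in NRAS.MYC.ND. Both came from few AKT1.MYC cells, 7 and 5, and 54 of the 73 Ccl17 UMIs from 1. Clec4n, the lectin dectin-2, was higher in AKT1.MYC cDCs (log2 ratio 2.92, 14 of 24 UMIs in 1 cell) and lower in AKT1.MYC macrophages (-1.60).

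Interferon response genes were lower in AKT1.MYC cDCs for 13 of 29 measured, and higher for none, with a median log2 ratio of -0.94. In macrophages 25 of 30 were lower and none higher, with a median of -1.58, while 9.57% of all 15585 genes were lower and the median of all was 0.14. The cDCs therefore differed in the same direction as the macrophages. The smaller median in cDCs cannot be read as a smaller difference. At 19 cells a gene without UMIs was set to 3 counts, which limits its ratio, and 3 of the 29 genes had no ratio. Cxcl9 and Cxcl10, the interferon-induced ligands of CXCR3, were nearly missing from the AKT1.MYC cDCs. Cxcl9 had no UMI in AKT1.MYC and 144 CPM in NRAS.MYC.ND (63 of 205 cells), a log2 ratio of -3.19 or lower, against -4.74 in macrophages. Cxcl10 had 5.25 CPM in AKT1.MYC (1 cell) and 73.8 CPM in NRAS.MYC.ND (36 cells), a log2 ratio of -3.81, against -0.61 in macrophages. Epsti1 had 63.0 CPM in AKT1.MYC and 437 CPM in NRAS.MYC.ND, where 147 of its 1049 UMIs came from 1 cell, and without the cells that meet the migratory criterion its log2 ratio was -1.55 in place of -2.79. Ccl5 had 105 CPM in AKT1.MYC (6 of 19 cells) and 1233 CPM in NRAS.MYC.ND (182 of 205 cells), where 1123 of the 2960 UMIs came from the 13 migratory cells. Without the cells that meet the migratory criterion NRAS.MYC.ND had 795 CPM. Over all kept barcodes Ccl5 stood at 91.5 CPM in AKT1.MYC and 4489 CPM in NRAS.MYC.ND, and the part of free RNA in its level in cDCs was not tested.

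Class I genes were lower too. B2m had 782 CPM in AKT1.MYC cDCs and 2076 CPM in NRAS.MYC.ND cDCs, a log2 ratio of -1.41 (-1.65 to -1.17), against -1.64 in macrophages. H2-D1, a classical class I heavy chain gene, had 919 CPM in AKT1.MYC cDCs and 1942 CPM in NRAS.MYC.ND cDCs. Of 20 class I and cross-presentation genes 6 were 2-fold lower in AKT1.MYC cDCs and none was higher. In the class II pathway Ciita had 63.0 CPM in AKT1.MYC cDCs and 134 CPM in NRAS.MYC.ND cDCs, a log2 ratio of -1.09, against -4.40 in macrophages. H2-DMb2 had log2 ratios of 0.25 in cDCs and -1.93 in macrophages. Over the measured class II pathway genes the median was -0.37 in cDCs and -0.78 in macrophages.

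The promoters of 3 genes are shown from this comparison, of 2 genes lower in AKT1.MYC cDCs and 1 gene higher. They are RefSeq promoters on GRCm38.p6, 250 bases before the start, 5′ to 3′ on the gene's strand. Cxcl10 is at chr5:92348890-92349139 on the minus strand, Rsad2, an interferon-induced antiviral enzyme with a log2 ratio of -2.22 in cDCs, at chr12:26456453-26456702 on the minus strand, and Cxcl2 at chr5:90903649-90903898 on the plus strand. Capitals mark matches on either strand to the interferon-stimulated response element type, searched as GAAA, 2 bases of any kind and GAAA again, and to the NF-kB type, searched as GGGA, 1 base of any kind, TT, 1 base of any kind and CC.
Cxcl10: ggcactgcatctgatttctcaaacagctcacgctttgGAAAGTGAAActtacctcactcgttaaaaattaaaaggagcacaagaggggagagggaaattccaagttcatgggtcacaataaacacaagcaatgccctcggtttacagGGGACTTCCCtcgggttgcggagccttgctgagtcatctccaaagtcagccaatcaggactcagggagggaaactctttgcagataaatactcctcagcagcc
Rsad2: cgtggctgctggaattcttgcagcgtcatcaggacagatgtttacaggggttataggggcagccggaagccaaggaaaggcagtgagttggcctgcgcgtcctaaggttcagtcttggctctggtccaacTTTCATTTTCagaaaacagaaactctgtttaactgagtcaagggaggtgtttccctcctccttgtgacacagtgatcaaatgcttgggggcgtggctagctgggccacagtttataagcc
Cxcl2: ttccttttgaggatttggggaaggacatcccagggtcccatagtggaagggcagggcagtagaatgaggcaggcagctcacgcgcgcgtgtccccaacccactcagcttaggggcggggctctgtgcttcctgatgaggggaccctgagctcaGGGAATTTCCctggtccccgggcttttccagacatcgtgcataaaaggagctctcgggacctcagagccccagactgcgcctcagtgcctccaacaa
Cxcl10 held an interferon type match starting 213 bases and an NF-kB type match starting 103 bases before the start site. Rsad2 held the interferon type 120 bases before it, read on the other strand, so its capitals show the reverse complement. Cxcl2 held the NF-kB type 97 bases before it and no interferon type match. Of all promoters of this length 2.98% held the interferon type and 0.980% the NF-kB type. Of the 30 interferon response genes 22 had a promoter in the table and 14 of these held the interferon type, and of 9 chemokine genes with a promoter 3 held the NF-kB type, Cxcl1, Cxcl2 and Cxcl10.

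**Figure D5:**
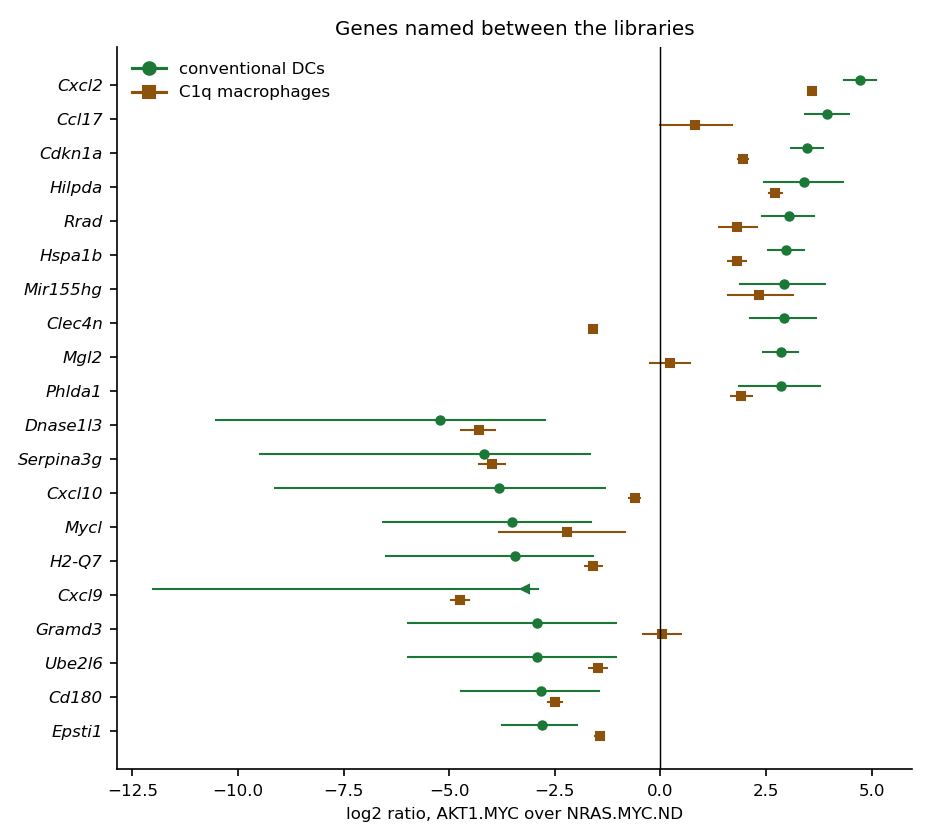
log2 ratio of AKT1.MYC over NRAS.MYC.ND, with 95% counting intervals, for the 20 genes named by size of the ratio, in cDCs (green circles, 19 against 205 cells) and C1q macrophages (brown squares); the green triangle marks a bound. Cxcl2 lies at 4.72 in cDCs and 3.59 in macrophages, Clec4n lies on opposite sides of 0 in the 2 populations, and Cxcl10 lies further from 0 in cDCs.

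Subset programmes differed between the libraries in ways that depend on which cells are counted. Over all cDCs, 6 of 20 cDC1 programme genes were 2-fold lower in AKT1.MYC and none was higher, with a median log2 ratio of -0.67. Of all genes in that comparison 12.1% were lower and 10.4% higher. Within cDC1, over 9 against 99 cells, the count was 9 of 20 lower and the median -0.92. Within cDC2-like cells, over 10 against 93 cells, 5 of 15 were higher, 1 was lower and the median was 0.63. Irf8 had 526 CPM in AKT1.MYC cDC2-like cells and 213 CPM in those of NRAS.MYC.ND. Mycl had 10.5 CPM in AKT1.MYC cDCs (2 of 19 cells) and 119 CPM in NRAS.MYC.ND cDCs (96 of 205 cells), a log2 ratio of -3.50, with -4.05 within cDC1 and -0.92 (1 UMI in AKT1.MYC) within cDC2-like cells. Dnase1l3, a secreted DNase of DCs and macrophages, had 5.25 CPM in AKT1.MYC (1 cell) and 195 CPM in NRAS.MYC.ND (85 cells), a log2 ratio of -5.22 (-10.53 to -2.73), against -4.30 in macrophages. Within cDC2-like cells, where AKT1.MYC had no Dnase1l3 UMI and NRAS.MYC.ND had 55.7 CPM, the ratio was -0.98 or lower. Maturation genes were 2-fold lower for 11 of 28 in AKT1.MYC cDCs, with a median of -0.84. Without the 19 NRAS.MYC.ND cells that meet the migratory criterion, 2 of 25 were lower, 3 were higher and the median was 0.14. The shares of all genes past 2-fold within subsets and without these 19 cells are not given. Those counts are therefore descriptions only.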

How the data were processed

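Single cells of 1 AKT1.MYC and 1 NRAS.MYC.ND liver tumour library were profiled with 10x Genomics 3′ chemistry. The deposited matrices hold UMI counts for 55450 genes, made by the authors with Cell Ranger on mm10, per the file headers (version 6.1.1) and the submitters' processing notes (version 6.1.2). No source used here names the annotation release. Barcodes were used as deposited, with no filter beyond the mitochondrial limit of 20%.

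Counts were summed over the cells of a population and library and scaled to CPM. Levels carry exact Poisson intervals, shares Clopper-Pearson intervals and ratios conditional binomial intervals, all at 95%, covering counting error only. A share of 0 carries, in place of an interval, the share that 3 counts would make. Cells are not replicates, so no p-values were computed. A ratio was counted from 10 UMIs over both populations, and a population with 0 UMIs was set to 3 counts to give a bound. C1q macrophages, monocytes, B, T and plasmacytoid cells were set apart by their own marker genes.

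Members, subsets and the 28 gene lists (486 genes, all found in the files) were chosen with earlier results of these data known, and the promoters shown after their genes' values were seen. Beside list members and genes of the rule, up to 10 genes per direction were named by the size of the ratio, among those with at least 50 CPM in the higher population, at least 30 UMIs, a level no lower than 0.5 times that over the library's kept barcodes and an interval that excludes 2-fold. Mitochondrial, ribosomal, haemoglobin, sex-linked, antigen receptor and unnamed genes were left out of that naming. Scrublet in scanpy marked 0% and 0.0158% of AKT1.MYC and NRAS.MYC.ND barcodes at its automatic threshold and so did not work here. The highest scores, up to 0.8% per 1000 barcodes, took in 3 and 11 cDCs, which were removed only as an alternative. Gene positions came from GENCODE vM21 and promoters from RefSeq on GRCm38.p6. The ratios, the share intervals and the cell rule were tested on simulated data, and the list counts were not. Alternatives covered depth, the mitochondrial limit, each threshold of the rule, doublet scores, thinning, scaling, equal weight per cell and the UMI minimum. Python 3.11.15 with numpy 2.4.6, scipy 1.17.1, pandas 2.3.3, scanpy 1.11.5 and matplotlib 3.10.9 was used.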

Additional observations from a re-analysis of the deposited data

How the results depend on the processing

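No paired analysis was possible because each model has 1 library. Of the main shares and counts recomputed under the alternatives, 156 values stayed within their counting interval or within 1.5 times, and 14 moved. Of the named-gene ratios and list medians, 1371 values stayed within their counting interval or near the main median, 103 moved and 8 reversed. The 14 and the 8 are described below. Asking for at least 3 genes of the rule gave shares of 0.0485% (AKT1.MYC) and 1.56% (NRAS.MYC.ND), a log2 ratio of -5.01 and a cDC1 share of 78.9% in NRAS.MYC.ND. It also gave 869 genes lower in AKT1.MYC cDCs than in macrophages (1625 before) and 693 genes lower in AKT1.MYC than in NRAS.MYC.ND cDCs (1225 before). Thinned to 1000 UMIs, the shares were 0% and 0.474%, and 14.8% of the NRAS.MYC.ND cDCs were migratory. From 20 UMIs on, 478 genes were higher and 671 lower in cDC1 than in cDC2-like cells (795 and 1104 before), and 641 were higher in AKT1.MYC cDCs (1060 before). With equal weight per cell, 2208 genes were lower in migratory cells (1198 before) and 2744 in AKT1.MYC cDCs against macrophages (1625 before). Reversed medians were those of the chemokines in cDC1 over cDC2-like cells, 0.15 with 3 genes of the rule, and of the cell cycle genes in AKT1.MYC cDCs over macrophages, -0.42 with 3 genes of the rule and -0.0655 without high doublet scores. Rrad between the libraries was -0.29 with 3 genes of the rule. Between the libraries, the alternatives added after seeing the data reversed the maturation genes to 0.14 without cells meeting the migratory criterion and 0.12 within cDC2-like cells, the cell cycle genes to 0.0216 within cDC1 and the cDC1 programme to 0.63 within cDC2-like cells. The cause was not tested. Scaling by the median of ratios subtracted a median from all log2 ratios of a comparison. The amount subtracted was -0.13 (cDC1 over cDC2-like), 0.30 (migratory over others), 0.13 (AKT1.MYC cDCs over macrophages) and 0.12 (AKT1.MYC over NRAS.MYC.ND). With 19 AKT1.MYC cDCs, genes under about 50 CPM rest on a few UMIs, and 1 library per model leaves the spread between animals unmeasured.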
